A study of Canis lupus familiaris with 20 samples.

Results

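CCL17, CCL20, CCL24, CCL27 and CCL28 are secreted CC chemokines that draw lymphocytes and eosinophils towards skin and mucosal surfaces. Each of these 5 genes was found through the RefSeq accession that the array files give for their probes, and each had 1 probe among 43603 distinct probes, of which 1648 could be given a gene symbol (1045 symbols). The accessions were NM_001003051 for CCL17, NM_001005254 for CCL20, NM_001003967 for CCL24, NM_001003968 for CCL27 and NM_001005257 for CCL28. The study asked how gene expression in canine mammary cancer cells and in macrophages changed once both were grown together.

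The 5 established canine mammary cancer lines were P114, from an anaplastic cancer, CMT-U27, from a simple carcinoma, CMT-W1 and CMT-W2, from adenocarcinomas, and CMT-U309, from a tumour of spindle cells. Monocytes sorted by CD64 from the blood of healthy dogs were layered on dye-stained cancer cells, kept with them for at least 72 h, and the cells were then sorted into stained cancer cells and unstained macrophages. Each sorted population was hybridised on a 2-colour array against the same cell type grown alone under the same culture conditions, called here its mono-culture. Co-cultured cells were trypsinised and sorted before RNA was taken, whereas mono-cultures were washed and scraped. In every ratio this handling cannot be told apart from growth with the other cell type. Each hybridisation was repeated with the dyes exchanged. The 20 arrays therefore gave 10 dye-swap pairs, 5 of cancer cells and 5 of macrophages, and 1 pair was counted as 1 replicate. A macrophage mono-culture held no cancer cells and is named below only by the line of the co-culture on the same arrays. Each line is a single cell population rather than a set of tumours, no growth factor was added to the monocytes, and how many donors or macrophage mono-cultures stood behind the arrays is not given in the sources used here. The p-values therefore measure the spread between lines, and where mono-cultures were shared they would not include the spread of the controls.

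Chemokines bind G protein-coupled receptors on leukocytes and guide them along a gradient. CCL17 is a ligand of CCR4, a receptor of type 2 helper and regulatory T cells, and is made by macrophages and dendritic cells exposed to interleukin-4 or interleukin-13. CCL20 is the ligand of CCR6 and attracts type 17 helper T cells, B cells and immature dendritic cells. Its gene is induced through NF-kB by interleukin-1, TNF and bacterial products. CCL24, or eotaxin-2, acts on CCR3 of eosinophils and basophils and is a known product of macrophages activated by interleukin-4. CCL27 and CCL28 share the receptor CCR10. CCL27 is best known from keratinocytes, and CCL28 from mucosal and glandular epithelium, including that of the mammary gland, where it attracts antibody-secreting cells.

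The identity of the sorted cells was checked first. Of 21 macrophage markers 10 were matched to a probe, and of 11 epithelial markers 1, the tight-junction gene CLDN3. In mono-culture the summed macrophage marker signal was between 698666 and 932182 in macrophages and between 3416 and 26975 in cancer cells. In co-culture it was 8.19% to 37.7% of the mono-cultured macrophage signal in the macrophage libraries, and 2.05% to 76.6% in the cancer cell libraries. In the CMT-U27 co-culture the markers went against the labels of the libraries, although the study checked the sorted cells by flow cytometry and microscopy. Their summed macrophage marker signal was 537241 in co-cultured cancer cells and 138743 in co-cultured macrophages, 3.87-fold higher in the former, with 10 of 10 markers higher. CLDN3 stood at 4848 in the CMT-U27 co-cultured macrophages and at 1330 in the co-cultured cancer cells, against 6855 in the mono-cultured cancer cells and 1624 in the mono-cultured macrophages. In P114 CLDN3 was also higher in the co-cultured macrophages, at 1095 against 955 in the co-cultured cancer cells. It was lower in the co-cultured macrophages of CMT-U309 (408 against 687), CMT-W1 (2030 against 6160) and CMT-W2 (913 against 2906). For CMT-U309, the spindle-cell line, the summed signal of 4 mesenchymal markers was 68416 in co-cultured and 9632 in mono-cultured macrophages. In its cancer cells that sum was 46711 in co-culture and 14947 in mono-culture. With the other lines it was 5166 to 11898 in co-cultured and 6031 to 7927 in mono-cultured macrophages. The source of this signal was not tested. In CMT-W2 the macrophage marker sums were nearly level, at 94492 in cancer cells and 93167 in macrophages, but 7 of 10 markers were higher in cancer cells. In the other lines the macrophage library had the higher sum, with 109415 against 263645 in CMT-U309, 36038 against 64347 in P114 and 19106 against 78230 in CMT-W1. Of the 10 markers, 0 in CMT-U309, 1 in P114 and 3 in CMT-W1 were higher in the cancer cell library. The main values of the chemokines and the list counts are therefore given with and without CMT-U27. In bulk samples, fewer cells of a type and less RNA per cell cannot be told apart.

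**Figure D1:**
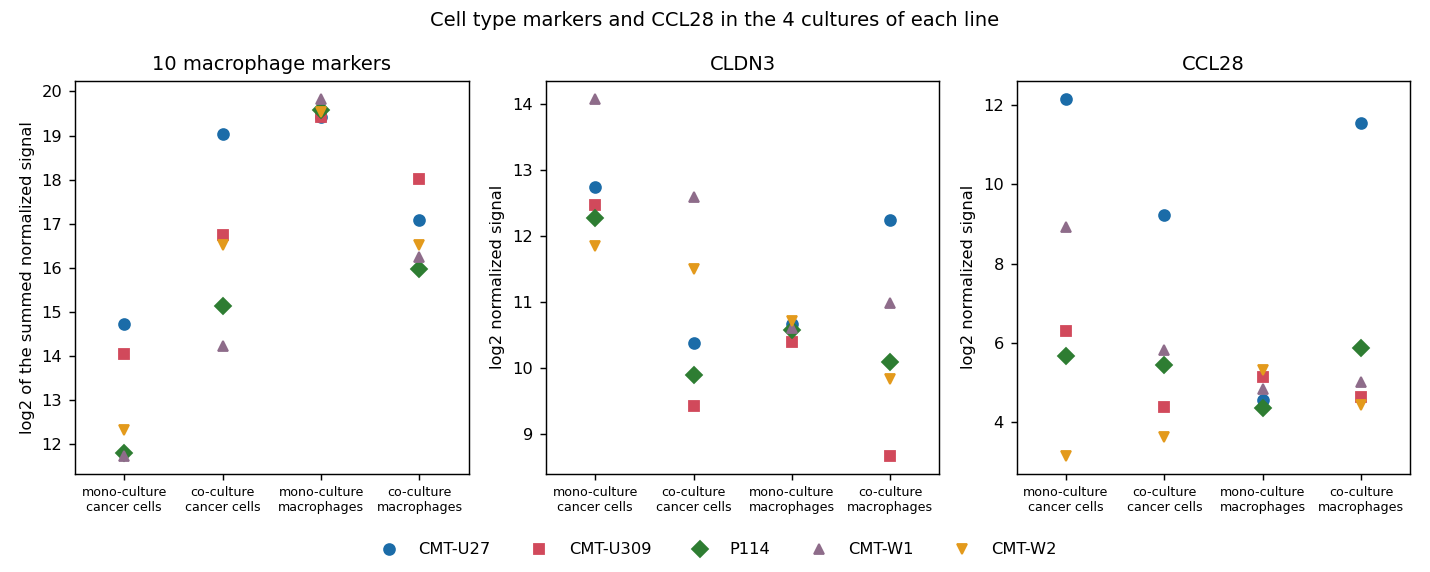
The 3 panels plot, on log2 scales, the summed normalized signal of 10 macrophage markers, the normalized signal of CLDN3 and that of CCL28 in the 4 cultures of each line, with 1 point per line. In CMT-U27 (circles) the co-cultured cancer cells had the higher macrophage marker sum, 537241 against 138743, and the co-cultured macrophages the higher CLDN3, 4848 against 1330.

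The quality of the spots differed between arrays. On the cancer cell array of CMT-U309 whose co-culture carried Cy5, 9870 of 43803 spots were marked as outliers by the scanner software, as were 1438 on the matching CMT-W2 array and 6 to 110 on the other arrays. For a marked spot the value from the other array of its pair is given below, and that pair did not enter the test. A pair was measured if on both arrays the spot was not marked and at least 1 channel was well above background. A gene was tested with at least 3 measured pairs of 5. Levels below are normalized array signals, ratios are log2 of co-culture over mono-culture, and adjusted p-values are from limma over all genes tested. No spot of the 5 chemokines was saturated.

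**Figure D2:**
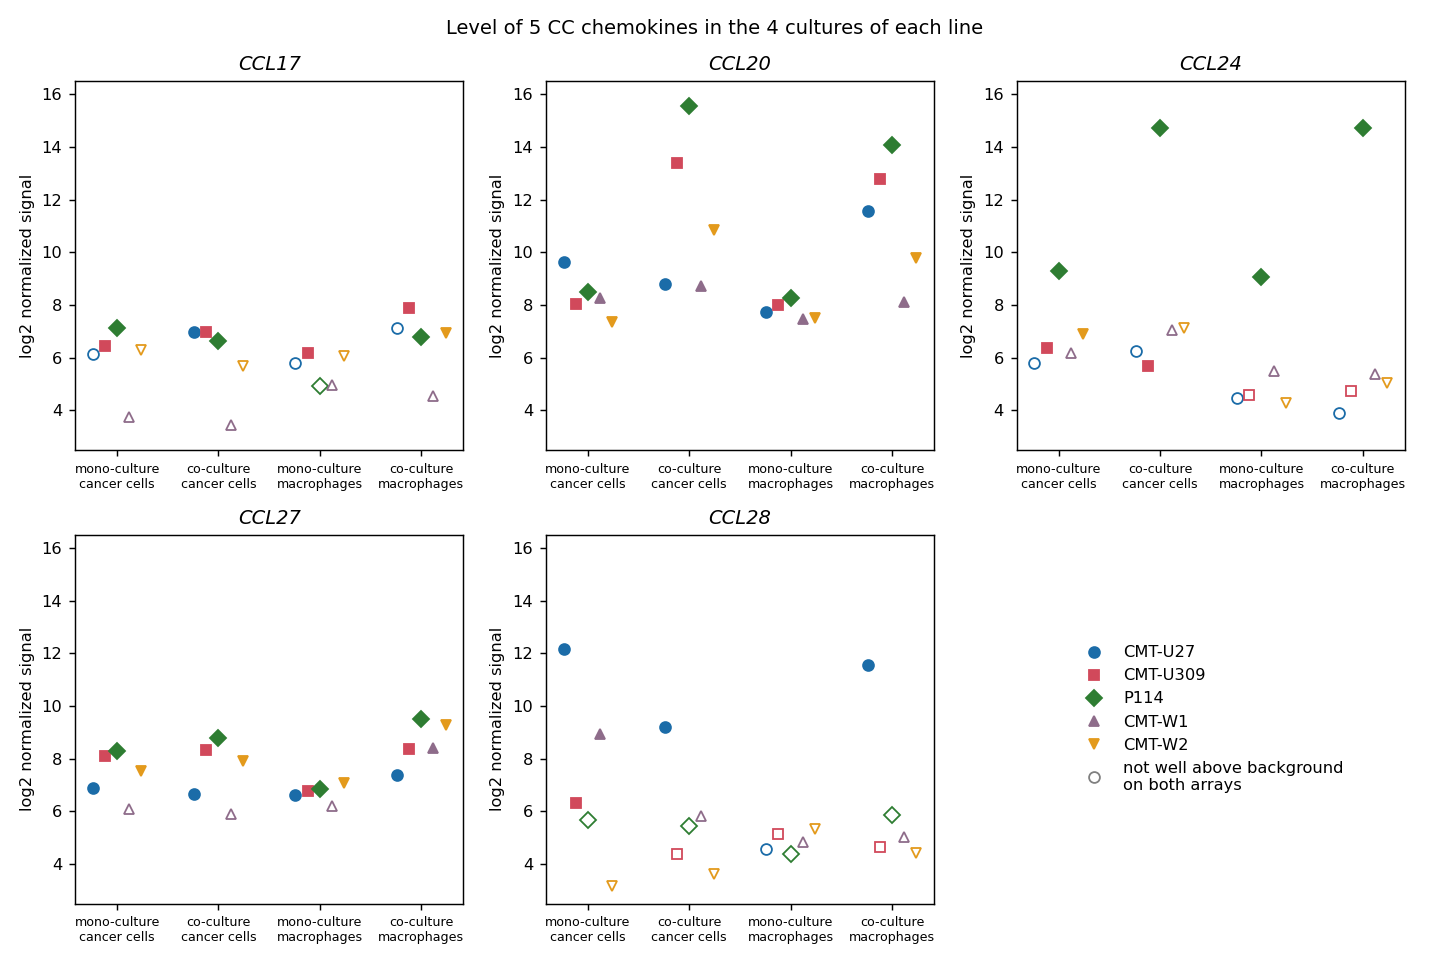
Log2 normalized signal (vertical axis) of each chemokine in mono-cultured and co-cultured cancer cells and macrophages, with 1 symbol per line. Open symbols were not well above background on both arrays, and a pair with a marked spot is shown by its other array. CCL20 was higher in the co-cultures of most lines, CCL24 stood near 14.72 only in the co-cultures of P114, and CCL28 varied most between mono-cultured cancer lines.

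In macrophages, CCL17, CCL20 and CCL27 were tested and all 3 were higher in co-culture, while 47.9% of 25708 genes passed the same threshold and 20.9% did so with a higher level in co-culture. CCL24 and CCL28 had 1 measured pair each there and were not tested. In cancer cells 4 of the 5 were tested and 0 passed limma's adjusted threshold, where 13.4% of 24415 genes did. At an unadjusted p under 0.05 the count was 1, CCL28, and under other settings 0 or 1 chemokine passed the adjusted threshold. The median gene stood at a log2 ratio of -0.17 in macrophages and -0.04 in cancer cells, and at -0.0035 and 0.01 after normexp background correction with loess. With median centring in place of loess it stood at 0.18 in cancer cells. Relative to the median gene the macrophage means were 1.62 for CCL17, 3.64 for CCL20 and 2.05 for CCL27.

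**Figure D3:**
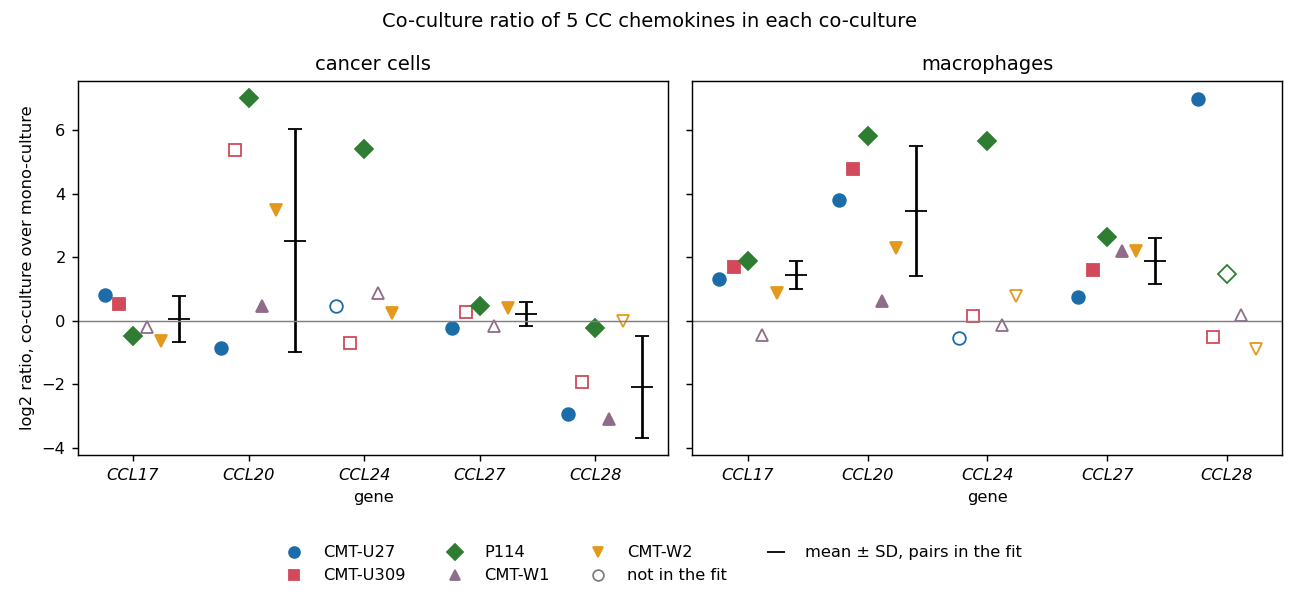
Co-culture ratio (log2) of each chemokine in cancer cells (left) and macrophages (right), 1 symbol per line. Bars show the mean and SD over the pairs that entered the test, and open symbols are pairs that did not. In macrophages CCL20 lay between 0.64 and 5.81 and CCL27 between 0.75 and 2.65, whereas CCL24 and CCL28 were each carried by 1 line.

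CCL20, the CCR6 ligand, had the largest mean ratio of the chemokines tested, in macrophages and in cancer cells. In mono-cultured macrophages its level was 213 on the arrays of CMT-U27, 254 on those of CMT-U309, 307 of P114, 176 of CMT-W1 and 181 of CMT-W2. In the same order it was 3008, 6972, 17261, 275 and 886 in the co-cultured macrophages. The level was higher in all 5 co-cultures, by little in CMT-W1 and by most in P114, and it was well above background on every array. The log2 ratios were 3.82, 4.78, 5.81, 0.64 and 2.29. Their mean was 3.47 ± 2.05 (SD, n = 5, SE 0.68, adjusted p = 0.00426 in limma). The spread between lines was thus large beside the mean, while both dye orientations of a line differed by 0.05 to 0.31. Without CMT-U27 the mean was 3.38 ± 2.35 (SD, n = 4, adjusted p = 0.0136 in limma), and with any 1 line left out it lay between 2.88 and 4.18. CCL20 in macrophages is among the genes that the study itself listed from these arrays, so its rise here is not independent evidence.

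In cancer cells the CCL20 level of the mono-cultures was 799 in CMT-U27, 261 in CMT-U309, 366 in P114, 309.8 in CMT-W1 and 165 in CMT-W2. In co-culture it was 440.1, 10845, 47589, 425 and 1860.4. The co-cultured level was far higher in 3 lines, close to the mono-culture in CMT-W1 and lower in CMT-U27. The log2 ratios were -0.86, 5.38, 7.02, 0.46 and 3.50, of which the CMT-U309 value comes from 1 array and was not in the test. Over the other lines the mean was 2.53 ± 3.51 (SD, n = 4, SE 1.22, adjusted p = 0.204 in limma), so the difference did not exceed the spread between lines. Without CMT-U27 it was 3.66 ± 3.29 (SD, n = 3, adjusted p = 0.134 in limma), and without P114 it was 1.03 (adjusted p = 0.475, limma). The order of the lines was the same in both cell types apart from CMT-U27, with P114 highest, then CMT-U309, CMT-W2 and CMT-W1.

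CCL17, the CCR4 ligand, was near the background throughout. It was well above background on 4 of 10 arrays in mono-cultured macrophages, 7 of 10 in co-cultured macrophages, 6 of 10 in mono-cultured cancer cells and 7 of 10 in co-cultured cancer cells. In macrophages the mono-culture level was 55.7 on the arrays of CMT-U27, 72.5 on those of CMT-U309, 30.4 of P114, 31.7 of CMT-W1 and 66.7 of CMT-W2. The co-culture level was 138, 236, 112, 23.3 and 123. It was higher in 4 of 5 lines and not well above background in either culture of CMT-W1. The P114 mono-culture was not well above background, and its co-culture was at least 2.17-fold higher, a bound set by the lowest signal on those arrays that was well above background.

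The CCL17 log2 ratios in macrophages were 1.31, 1.70, 1.88 and 0.88 in CMT-U27, CMT-U309, P114 and CMT-W2. Their mean was 1.44 ± 0.44 (SD, n = 4, SE 0.28, adjusted p = 0.00583 in limma), and 1.49 ± 0.53 (SD, n = 3, adjusted p = 0.0200 in limma) without CMT-U27. The dye orientations of the CMT-U27 pair gave 0.33 and 2.29, farther apart than the ratios of the 4 lines. The call depended on how the dim signals were treated. It was lost after normexp background correction with loess (0.35, adjusted p = 0.107, limma) or with median centring (0.35, adjusted p = 0.194, limma), with no filter on dim probes (1.07, adjusted p = 0.0972, limma) and with the 10 arrays fitted with a dye term (adjusted p = 0.118, limma).

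In cancer cells CCL17 went both ways. The mono-culture level was 71.2 in CMT-U27, 87.3 in CMT-U309, 139 in P114, 13.4 in CMT-W1 and 78.8 in CMT-W2, and the co-culture level was 126, 127, 98.6, 10.8 and 51.2. It was higher with macrophages in CMT-U27 and CMT-U309 and lower in P114 and CMT-W2, while CMT-W1 was not well above background. The mean log2 ratio was 0.06 ± 0.72 (SD, n = 4, adjusted p = 0.916 in limma), and -0.19 ± 0.63 (SD, n = 3) without CMT-U27.

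CCL24, the CCR3 ligand, was bright in the co-cultures of 1 line. In P114 cancer cells its level was 632 in mono-culture and 27049 in co-culture, a log2 ratio of 5.42, and in P114 macrophages it was 531 and 27066, a log2 ratio of 5.67. The dye orientations gave 5.16 and 5.67 in cancer cells and 5.52 and 5.82 in macrophages. Both sorted populations of the P114 co-culture thus had nearly the same CCL24 level. On these 4 arrays the mono-culture signal of the spot was 1.77% to 2.79% of its co-culture signal.

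In the macrophages of the other lines CCL24 lay between 19.2 and 45.2 in mono-culture and between 15.0 and 41.5 in co-culture. It was well above background on 1 of these 8 arrays in mono-culture and on 2 of 8 in co-culture. In the cancer cells of the other lines it lay between 55.8 and 119 in mono-culture and between 51.4 and 141 in co-culture, with log2 ratios of 0.47 in CMT-U27, -0.69 in CMT-U309, 0.87 in CMT-W1 and 0.24 in CMT-W2. The co-culture level exceeded that in P114 mono-cultures in none of these lines. Only P114 and CMT-W2 were measured on both arrays in cancer cells and only P114 in macrophages, so no test was made. With the filter on dim probes left out, the adjusted p was 0.372 in cancer cells and 0.451 in macrophages (limma).

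CCL27, a ligand of CCR10, was higher in the co-cultured macrophages of all 5 lines. In mono-cultured macrophages it stood at 98.0 on the arrays of CMT-U27, 109.8 on those of CMT-U309, 117 of P114, 74.3 of CMT-W1 and 137 of CMT-W2. In co-cultured macrophages it stood at 165, 333, 734, 344 and 625. Every co-culture was above every mono-culture, and the co-culture signal was well above background on all 10 arrays and the mono-culture signal on 9. The log2 ratios were 0.75, 1.60, 2.65, 2.21 and 2.19, with a mean of 1.88 ± 0.73 (SD, n = 5, SE 0.31, adjusted p = 0.00202 in limma). Without CMT-U27, the line with the smallest ratio, the mean was 2.16 ± 0.43 (SD, n = 4, adjusted p = 0.00167 in limma). The size depended on the background correction, being 0.76 with normexp and loess (adjusted p = 0.0114, limma) and 0.77 with median centring (adjusted p = 0.0233, limma).

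In cancer cells CCL27 did not pass the test. The mono-culture level was 120.0 in CMT-U27, 272 in CMT-U309, 316 in P114, 67.6 in CMT-W1 and 184 in CMT-W2, and the co-culture level was 103, 327, 438, 59.6 and 242. The log2 ratios lay between -0.23 and 0.47 and had both signs, and in CMT-U27 the dye orientations gave 0.78 and -1.23. The mean of the 3 pairs tested was 0.21 ± 0.38 (SD, n = 3, adjusted p = 0.672 in limma), and 0.43 ± 0.05 (SD, n = 2) without CMT-U27, with no test. In every line the co-cultured macrophages had more CCL27 signal than the mono-cultured or co-cultured cancer cells of that line. The margin was small in CMT-U309, at 333 against 327, and the cancer cell value there comes from 1 array. On the other array, whose spot was marked, the log2 level was 9.22 in co-cultured and 10.36 in mono-cultured cancer cells. Both lay above the log2 level of 8.38 in the co-cultured macrophages of that line.

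**Figure D4:**
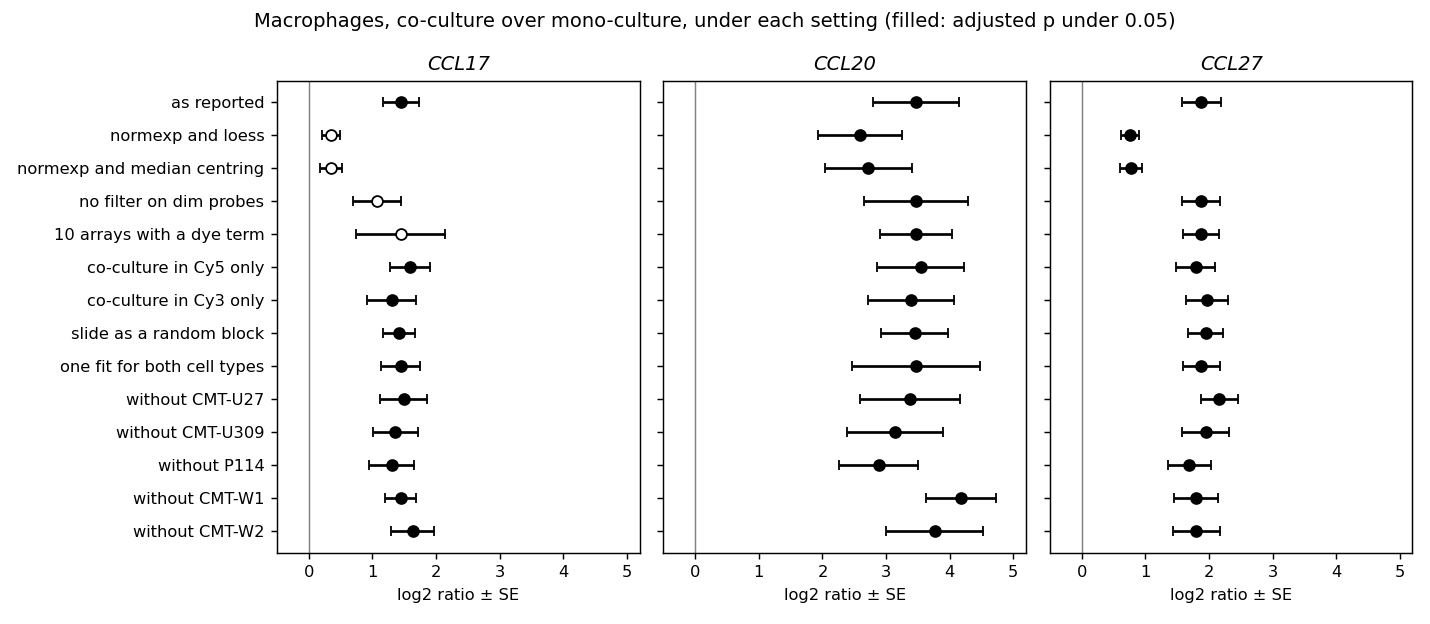
Co-culture ratio (log2) in macrophages for CCL17, CCL20 and CCL27 under each processing setting. Points are means, bars are standard errors, and filled points had an adjusted p under 0.05. CCL20 and CCL27 passed under every setting shown, and CCL17 did not pass under 4 of them.

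CCL28, the mucosal CCR10 ligand, was bright in some of the mono-cultured cancer lines. In mono-cultured cancer cells it stood at 4569 in CMT-U27, 79.0 in CMT-U309, 50.7 in P114, 485 in CMT-W1 and 8.93 in CMT-W2, with 1 array each for CMT-U309 and CMT-W2. In co-cultured cancer cells it stood at 596, 20.8, 43.3, 57.0 and 12.5. CMT-U27 and CMT-W1 were the bright lines and both were lower with macrophages, by log2 ratios of -2.94 and -3.09. The CMT-W1 co-culture was not well above background, and its mono-culture was at least 3.89-fold higher. P114 gave -0.23, CMT-U309 gave -1.92 on 1 array and CMT-W2 gave 0.00 on 1 array.

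The mean CCL28 ratio over CMT-U27, P114 and CMT-W1 was -2.09 ± 1.61 (SD, n = 3, SE 0.63, adjusted p = 0.0887 in limma), which did not pass. It passed with slide as a random block (-1.91, adjusted p = 0.0312, limma) and with the 10 arrays fitted with a dye term (adjusted p = 0.0499, limma). The latter counts both arrays of a pair, with a correlation of 0.86 between them shared by all genes, so 6 arrays stood for 3 lines. The mean was -0.92 and -0.76 under both normexp corrections. Without CMT-U27 only 2 measured pairs remained, -1.66 ± 2.02 (SD, n = 2), and no test was made. CLDN3, the epithelial marker, was also lower in the co-cultured cancer cells, at 1330 against 6855 in CMT-U27 and 6160 against 17340 in CMT-W1, where CCL28 was lower too, and at 955 against 4985 in P114, where the CCL28 ratio was -0.23. It was at 687 against 5711 in CMT-U309 and 2906 against 3704 in CMT-W2. Mono-cultured macrophages also carried CLDN3 signal, at 1357 to 1684. The co-cultured cancer cells of CMT-U27, CMT-U309 and P114 lay below that range. CLDN3 signal was thus not confined to cancer cells, and its part in the CCL28 values was not tested.

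In mono-cultured macrophages CCL28 was well above background on 0 of 10 arrays, with levels of 20.8 to 40.1. Mono-cultured cancer cells, well above background on 6 of 8 unmarked spots, were at least 2.89-fold higher as a group mean, and at least 1.20-fold without CMT-U27. CMT-W2, at 8.93, was below every macrophage mono-culture. The co-cultured macrophages labelled CMT-U27 reached 3016, at least 64.3-fold above their mono-culture, and their dye orientations gave 7.46 and 6.50. Those of the other lines were at 24.8 with CMT-U309, 58.3 with P114, 32.5 with CMT-W1 and 21.7 with CMT-W2, with no pair measured. The CCL28 signal in macrophages was thus that of the library which also carried 4848 of CLDN3 and the lower macrophage marker sum of its line.

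The response of both cell types was then compared directly. CCL17, CCL20 and CCL27 could be tested for a difference in their co-culture ratios, and 2 of the 3 differed with a higher ratio in macrophages, where 30.9% of 23769 genes differed and 14.9% did so with a higher ratio in macrophages. The log2 ratio of CCL27 was 1.67 higher in macrophages (SE 0.47, adjusted p = 0.0217, limma) and that of CCL17 was 1.38 higher (SE 0.44, adjusted p = 0.0358, limma). Without CMT-U27 the CCL17 difference was 1.68 (adjusted p = 0.0445, limma). For CCL20 it was 0.94 (SE 1.50, adjusted p = 0.667, limma), and -0.28 without CMT-U27. Neither call held after normexp with loess (CCL17 0.28, adjusted p = 0.365, and CCL27 0.67, adjusted p = 0.0544, limma). The CCL17 call was also lost without CMT-U309 (adjusted p = 0.0788, limma), CMT-W2 (adjusted p = 0.0855, limma) or P114 (adjusted p = 0.197, limma), and CCL27 could not be tested without CMT-U27, P114 or CMT-W2.

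Slide and cell type were almost confounded, since 1 of the 5 slides held both cell types. On that slide the macrophages of CMT-U27 minus the cancer cells of CMT-W1 gave 1.50 for CCL17, 3.37 for CCL20 and 0.93 for CCL27, and for CCL17 and CCL27 the CMT-W1 pair was not measured. With slide as a fixed block CCL20 was 3.37 (adjusted p = 0.720, limma) and the others could not be fitted.

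The levels in the 4 cultures were also ordered, as mean log2 signals over the 5 lines. For CCL20 co-cultured cancer cells (11.46 ± 2.97, SD, n = 5) and co-cultured macrophages (11.26 ± 2.37) stood above mono-cultured cancer cells (8.36 ± 0.83) and mono-cultured macrophages (7.79 ± 0.34). For CCL27 co-cultured macrophages led (8.60 ± 0.85), followed by co-cultured (7.52 ± 1.20) and mono-cultured cancer cells (7.38 ± 0.91) and mono-cultured macrophages (6.71 ± 0.33). For CCL17 co-cultured macrophages were highest (6.66 ± 1.25) and mono-cultured macrophages lowest (5.59 ± 0.60), with both cancer cell cultures between them. Without CMT-U27 the leading culture of each of these genes was the same, at 12.13 ± 2.97 for CCL20, 8.90 ± 0.59 for CCL27 and 6.54 ± 1.42 for CCL17 (SD, n = 4).

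CCL28 was highest in mono-cultured cancer cells (7.24 ± 3.43) and lowest in mono-cultured macrophages (4.85 ± 0.39). Without CMT-U27 it was 6.01 ± 2.37 (SD, n = 4) in mono-cultured cancer cells and between 4.82 and 4.99 in the other cultures. For CCL24 co-cultured cancer cells were highest (8.18 ± 3.71) and mono-cultured macrophages lowest (5.57 ± 2.00). The ranges of neighbouring cultures overlapped at every step for all 5 genes. Between mono-cultured macrophages and cancer cells 0 of 2 tested chemokines differed, CCL20 by -0.66 (adjusted p = 0.275, limma) and CCL27 by -0.49 (adjusted p = 0.422, limma), where 34.6% of 23270 genes differed. Between co-cultured macrophages and cancer cells 0 of 3 differed, CCL17 by 0.72, CCL20 by 0.28 and CCL27 by 1.28, each with an adjusted p of 1.00 (limma), where 0.00425% of 23506 genes, a single gene, differed.

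Of the receptors for these ligands, CCR3 and CCR4 had a probe that could be named. CCR4, which binds CCL17, was lower in all 5 co-cultures of both cell types, with a mean log2 ratio of -1.14 ± 0.41 in cancer cells (SD, n = 5, adjusted p = 0.0218 in limma) and -0.98 ± 0.63 in macrophages (SD, n = 5, adjusted p = 0.0221 in limma). Neither passed without CMT-U27, at -1.03 in cancer cells (adjusted p = 0.0587, limma) and -0.74 in macrophages (adjusted p = 0.0737, limma). Its mono-culture level was 309.3 to 1202 in cancer cells and 284 to 435 in macrophages. CCR3, which binds CCL24, rose in cancer cells by 2.14 ± 0.57 (SD, n = 4, adjusted p = 0.0125 in limma), from levels of 22.5 to 113 to levels of 102 to 478. In macrophages it had both signs, with -1.09, 0.01, -2.71, 1.52 and 1.72 from CMT-U27 to CMT-W2 in the order used above (mean -0.11 ± 1.85, SD, n = 5, adjusted p = 0.896, limma). In P114, the line with the bright CCL24, macrophage CCR3 was lowest, at 108 in co-culture against 704 in mono-culture.

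Of the 22 chemokine receptors listed, 7 were matched. In cancer cells 4 rose and 1 fell of 7 (median 2.14, against -0.04 over all genes), and in macrophages 0 rose and 5 fell (median -1.96, against -0.17). The shares of all genes called were 13.4% and 47.9%. Without CMT-U27 the counts were 4 up and 0 down in cancer cells, where 6.16% of all genes were then called, and 0 up and 4 down in macrophages, where 38.4% were. CCR1, a receptor of monocytes and other leukocytes, rose in cancer cells by 3.18 ± 1.02 (SD, n = 4, adjusted p = 0.0111 in limma) and in macrophages fell by 3.36 (SD 0.91, n = 5, adjusted p = 0.000295 in limma). ACKR3, a scavenging receptor of CXCL12, rose by 3.50 ± 1.29 and fell by 3.08 (SD 2.45), both with n = 5. Of the macrophage markers 8 of 9 tested rose in cancer cells and 9 of 10 fell in macrophages, and their part in the receptor values was not tested.

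Among other chemokine ligands, 15 matched of 32, 7 of 9 rose and 0 fell in cancer cells (median 4.13), where 13.4% of all genes were called and 6.45% as higher. In macrophages 2 rose and 2 fell of 10 (median 0.58), below the 47.9% of all genes called there. Without CMT-U27 the counts were 8 up in cancer cells, and 2 up and 2 down in macrophages. CXCL8, which attracts neutrophils, rose by 7.67 ± 1.50 in cancer cells (SD, n = 5, adjusted p = 0.000834 in limma), and in macrophages it gave 0.56 ± 3.48 (SD, n = 5, adjusted p = 0.702 in limma). CCL3 and CCL2, ligands for monocytes, rose in cancer cells by 5.23 ± 0.71 and 4.86 ± 0.60 (SD, n = 5 each). In mono-culture the log2 levels of CCL3 and CCL2 were 2.60 and 5.15 higher in macrophages than in cancer cells, and that of CXCL8 was higher too (adjusted p = 0.000419, limma). The macrophage markers rose in the same cancer cell libraries (8 of 9 tested), and their part in the ligand values was not tested. CCL13, another monocyte and eosinophil attractant, fell by 5.24 in macrophages (SD 1.26, n = 5, adjusted p = 0.000138 in limma). The others that passed in macrophages, named after their values were seen, were CCL7 (4.43) and CXCL10 (4.28), which rose, and CCL8 (-2.24), which fell. In the test of the difference between cell types, 6 of 9 of these ligands had a lower ratio in macrophages than in cancer cells and 0 a higher one, whereas CCL17 and CCL27 had a higher one.

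For CCL17 and CCL24 a list of genes around the interleukin-4 and interleukin-13 pathway was looked at, of which 6 of 18 were matched. In macrophages 2 of 4 rose (median 1.92) and in cancer cells 2 of 3 (median 3.25), with 0 lower in either. The shares over all genes called as higher were 20.9% in macrophages and 6.45% in cancer cells. Without CMT-U27 the counts were 2 of 3 in each. IL13RA2, the decoy receptor of interleukin-13, rose by 4.72 ± 0.77 in macrophages (SD, n = 4, adjusted p = 0.000146 in limma) and by 4.50 ± 1.80 in cancer cells (SD, n = 3, adjusted p = 0.0184 in limma). IL5, the eosinophil growth factor, rose by 2.56 ± 1.55 in macrophages (SD, n = 3, adjusted p = 0.0148 in limma). IL33, an epithelial alarmin, rose by 3.25 ± 1.10 in cancer cells (SD, n = 4, adjusted p = 0.0117 in limma). The mono-cultures were dim for these genes. In macrophages they stood at 11.1 to 22.6 for IL13RA2 and 24.1 to 53.2 for IL5. In cancer cells they stood at 15.0 to 130 for IL13RA2 and 13.7 to 28.7 for IL33. The size of these ratios is therefore uncertain, and no value after normexp is given for them. IL2RG, also on the list, passed in neither cell type, with or without CMT-U27. Without that line it gave -0.07 in cancer cells (adjusted p = 0.870, limma) and -0.0025 in macrophages (adjusted p = 0.996, limma).

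For CCL20 the NF-kB pathway and its cytokines were looked at, of which 9 of 24 were matched. In cancer cells 7 of 9 rose and 0 fell (median 3.55), where 13.4% of all genes were called and 6.45% as higher. In macrophages 2 rose and 3 fell of 9 (median -0.04), a share near the 47.9% of all genes called there. Without CMT-U27 the counts were 5 up and 0 down in cancer cells and 1 up and 4 down in macrophages. IL1B and IL1A, the interleukin-1 genes, rose in cancer cells by 5.86 ± 1.82 (SD, n = 4, adjusted p = 0.00777 in limma) and 5.25 ± 1.65 (SD, n = 5, adjusted p = 0.00405 in limma). Their mono-culture levels were 7.20 and 7.41 higher on the log2 scale in macrophages than in cancer cells, and the macrophage markers rose in the same cancer cell libraries (8 of 9, median 4.31), whose part was not tested. In macrophages IL1A fell by 1.89 (SD 1.70, n = 5, adjusted p = 0.0265 in limma) and TLR2, a receptor for bacterial lipoproteins, fell by 3.77 (SD 1.41, n = 5, adjusted p = 0.000762 in limma). In cancer cells TLR2 rose by 5.25 ± 0.71 (SD, n = 4, adjusted p = 0.00116 in limma). BIRC3, an inhibitor of apoptosis and NF-kB target, rose in both, by 1.79 ± 0.82 in macrophages (SD, n = 5, adjusted p = 0.0033 in limma) and 3.75 ± 1.37 in cancer cells (SD, n = 4, adjusted p = 0.0125 in limma). TNF did not pass without CMT-U27. It gave 0.41 in cancer cells (adjusted p = 0.314, limma) and 0.21 in macrophages (adjusted p = 0.611, limma).

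Only CCL20 and CCL27 were well above background in enough of the 20 cultures to ask which genes had a like pattern. Over the 20 cultures and 690 named genes, the highest Pearson correlations of log2 level with CCL20 were those of CCL7 (0.80), KITLG (0.76) and SEC61A1 (0.75). With CCL27 they were THADA (0.85), TPMT (0.81) and PRKDC (0.79). The cultures share arrays, lines and 1 cell type per group, so these values describe likeness only.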

How the data were processed

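Feature Extraction 10.7.3.1 output was deposited by the authors for 20 canine arrays, with log10 ratios of Cy5 over Cy3 and background-subtracted, dye-normalized intensity per spot. Precision is limited by the number of lines. Ratios were turned to co-culture over mono-culture and averaged over each dye-swap pair as log2 values. Per the labels a pair holds biological replicates, whereas the methods describe a dye swap. The brightest probe stood for each gene. Levels were Aquantile-normalized processed signals per channel. Tests used limma 3.58.1 (R 4.3.3) with Benjamini-Hochberg adjustment, without a line block. Tables and figures used Python 3.11.15, pandas 2.3.3, numpy 2.4.6 and matplotlib 3.10.9. Scripts were tested on simulated data. Both populations of a co-culture share a line, and same-line deviations correlated at 0.04 to 0.46 (other combinations -0.38 to 0.19). Named were all members, CCR3 and CCR4, up to 4 called genes per list with the largest change, and 3 genes of like pattern. IL2RG and TNF were added after their values were seen. A receptor that the rule names is not reported here. The members and lists were chosen with earlier results of these data known. Normexp used an offset of 50.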

Additional observations from a re-analysis of the deposited data

Results flagged for a closer look

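In 7 of 30 groups of 5 values, 1 line stood apart from the others. Chance gives about 1 in 20 for independent groups. These groups were not independent, since the ratio and both levels of a gene came from the same pairs. No excess over chance can be read from the count. CCL24 made up 5 of these, all P114. Its log2 ratio was 5.42 in cancer cells (others -0.69 to 0.87) and 5.67 in macrophages (others -0.54 to 0.79). Its log2 level was 14.72 in co-cultured cancer cells (others 5.68 to 7.14), 14.72 in co-cultured macrophages (others 3.91 to 5.38) and 9.05 in mono-cultured macrophages (others 4.27 to 5.50). On both P114 macrophage arrays the mono-culture signal was 1.77% and 2.17% of the co-culture signal of the same spot. Whether that mono-culture level was separate from the co-culture signal was not tested. CCL28 in the co-cultured macrophages labelled CMT-U27 had a log2 level of 11.56 (others 4.44 to 5.87). CCL17 in mono-cultured CMT-W1 cancer cells had a log2 level of 3.75, below the others (6.15 to 7.12), and was not well above background there.

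The co-culture log2 ratio differed between cell types for CCL17, by 1.38 (adjusted p = 0.0358, limma), and for CCL27, by 1.67 (adjusted p = 0.0217, limma), both higher in macrophages. Neither call held after normexp with loess or with median centring. The CCL17 call was also lost without CMT-U309, CMT-W2 or P114, and slide and cell type were almost confounded.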

How the results depend on the processing

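The limits are the number of lines, dim signals (CCL17, CCL24, CCL28) and marked spots (CMT-U309, CMT-W2). For single chemokines 170 values kept direction and side of the threshold, 12 lost the call, 2 gained it and 9 turned sign. Some of the 170 could hardly have changed. Among them were fits to the same ratios as deposited for the series and fits of each probe alone, with 1 probe per chemokine. Fits that left out a line not measured for the gene also repeated the estimate. Genes called in cancer cells (3265) were 51 with normexp and loess, 1803 with no filter, 2029 with Cy5 only, 8142 with slide as a random block, 8 with the methods' t-test (960 at its unadjusted p under 0.01), and 760 to 2484 without 1 line. The 1 chemokine called there with slide as a random block or a dye term was CCL28. Genes called in macrophages (12322) were 6713 with median centring and 9256 to 12807 without 1 line. For the difference (7335 genes, 2 chemokines) the counts were 4031 and 0 with median centring, 43 and 0 with slide as a fixed block, and 4861 genes measured in all 5 pairs. The chemokine count was 0 with normexp and loess, 1 with no filter, and 0 to 2 without 1 line (genes 4620 to 6529). Genes called in mono-culture levels (8057) were 5064 to 9456 without 1 line. Those in co-culture levels (1) were 2 with normexp, loess and Aquantile, 2 with no filter, and 0 to 1 without 1 line.

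Signs turned for CCL17 in cancer cells (-0.32 with Cy3 only, -0.039 with median centring, -0.19 to 0.29 without 1 line), CCL27 in cancer cells (-0.20 with Cy5 only), the CCL20 difference (-0.28 to 1.85 without 1 line) and the CCL20 co-culture level (-0.10 with the line block, -0.53 to 1.10 without 1 line). With line as a replicate block the difference called 7787 genes, the mono-culture levels 7144 and the co-culture levels 1, and no chemokine call changed. Measured in all 5 pairs, no chemokine could be tested in cancer cells or for the difference. The causes were not tested.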

Other observations

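Of 5 matched eosinophil and mast cell markers out of 9, 2 rose and 1 fell of 4 tested in macrophages, where 47.9% of all genes were called. Without CMT-U27, 0 rose and 1 fell of 3. MS4A2, the beta chain of the IgE receptor, gave 2.89 (adjusted p = 0.00392, limma), KIT gave 1.50 (adjusted p = 0.0191, limma) and FCER1A, the alpha chain of the same receptor, gave -2.76 (adjusted p = 0.00357, limma). In cancer cells 1 of 2 rose, CCR3. Of lymphocyte markers, 3 matched of 13, MS4A1 rose in macrophages (2.52, adjusted p = 0.0483, limma) and CD4 (-1.26) and CD8A (-0.64, not passed without CMT-U27) fell, while 0 of 2 passed in cancer cells. Of mesenchymal markers, 4 matched of 8, PDGFRB fell in cancer cells (-1.25, adjusted p = 0.0473, limma, and 0.0640 without CMT-U27) and 0 of 3 passed in macrophages. These genes were named after their values were seen. FLT3 was the only dendritic cell marker matched of 8 and was not tested. In macrophages its level was 309.9 in co-culture against 19.6 in mono-culture with CMT-U27, whose library went against its label, 103 against 21.0 with CMT-U309, 38.1 against 15.7 with P114, 19.9 against 52.7 with CMT-W1 and 69.7 against 19.3 with CMT-W2. Both arrays of the co-culture were well above background with CMT-U27 and CMT-U309 only.

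On the cancer cell array of CMT-U309 whose co-culture carried Cy5, the CCL28 spot was marked as an outlier and read 7889 for the mono-culture, where the other array of the pair read 110. The CCL20 spot read 2197 against 343, and the CCL27 spot 3049 against 348.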
